A study of Mus musculus with 4 samples.

Results

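Midkine (Mdk), pleiotrophin (Ptn) and the cell-surface proteins that bind them were examined in mouse embryonic stem (ES) cells lacking Snai1 and in control ES cells. The set held 10 genes of the 18193 genes measured: the growth factors Mdk and Ptn, the syndecans Sdc1, Sdc2, Sdc3 and Sdc4, the receptors Ptprz1 and Alk, and the binding proteins Lrp1 and Ncl. Its members were all 28 probe sets that the platform annotation assigns to one of these genes and to no other gene. The set was chosen by the knockout against control difference of Mdk in these same arrays, and the other genes were added as its relative and its binding partners. The comparison between the groups is therefore given as a description of these genes, without a test. Transcript levels were read on 4 single-colour Affymetrix arrays, with total RNA labelled from its 3' end. There were 2 arrays of Snai1 knockout ES cells (titled KO.ES) and 2 arrays of control ES cells (titled F/F.ES), which the labels call biological replicates without saying whether they were separate cultures, clones or days. All cells grew on feeder cells with leukaemia inhibitory factor, which keeps ES cells undifferentiated, and had no further treatment. The labels give no strain and no sex of the cells, do not explain F/F, and do not say how Snai1 was deleted or how many clones were used.

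Midkine and pleiotrophin are small secreted proteins that bind heparin and together form a growth factor family. They act at the cell surface, where the heparan sulfate or chondroitin sulfate chains of proteoglycans such as the syndecans hold them and where they engage signalling receptors. Midkine was found as a gene that retinoic acid induces in mouse embryonal carcinoma cells, and it is made widely in the early embryo. Snai1 encodes Snail, a zinc finger repressor that binds E-box sequences.

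Promoter sequences were compared first, because the deleted protein is an E-box repressor. RefSeq promoters (GRCm38.p6, 250 bases before to 50 bases after the annotated start, 300 bases) were at hand for 8 of the 10 genes, all except Mdk and Sdc2. The E-box form bound by Snail, CAGGTG, was searched on both strands, where its reverse complement reads CACCTG, and was found in 0 of the 8, against 20.2% of 32851 mouse promoters of the same length. The general form CANNTG, which includes CAGGTG, was found in 1 of the 8 promoters, that of Sdc1, against 72.3% of all promoters. The promoters of the remaining growth factor and of Sdc1 are shown, in the direction of transcription, with the CANNTG match in capitals. It starts 34 bases before the annotated start of Sdc1. That of Ptn lies at chr6:36810130-36810429 on the minus strand, with 52.0% G or C and 6 CG pairs, and that of Sdc1 at chr12:8771146-8771445 on the plus strand, with 66.3% G or C and 14 CG pairs.
Ptn: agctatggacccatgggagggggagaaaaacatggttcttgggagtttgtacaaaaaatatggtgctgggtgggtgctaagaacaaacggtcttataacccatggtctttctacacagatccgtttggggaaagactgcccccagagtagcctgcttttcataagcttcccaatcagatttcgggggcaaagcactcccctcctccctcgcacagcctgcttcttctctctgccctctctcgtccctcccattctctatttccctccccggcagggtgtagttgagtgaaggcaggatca
Sdc1: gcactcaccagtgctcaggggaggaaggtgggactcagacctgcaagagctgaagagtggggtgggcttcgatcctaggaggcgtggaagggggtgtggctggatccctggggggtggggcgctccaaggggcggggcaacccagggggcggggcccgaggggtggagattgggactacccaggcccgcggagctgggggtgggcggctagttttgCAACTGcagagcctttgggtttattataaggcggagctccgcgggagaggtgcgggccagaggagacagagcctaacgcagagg
These matches describe the letters of the windows only, and no binding was measured.

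The arrays had medians of 4.91 to 4.95 on the log2 scale, and their number limits the precision of every comparison. Bacillus control probe sets, which no mouse RNA should bind, ranged from 2.91 to 4.77 and are used here as the background range. Of the 28 probe sets, 21 lay above that range on all 4 arrays, 5 lay within it on all 4, and 8 of the 10 genes had at least 1 probe set above it throughout. The defining ES cell genes were bright, with Pou5f1 at 13.07 and 12.98 in the knockout, against 12.12 and 12.23 in the control, and Sox2 at 12.06 and 12.00 in the knockout, against 12.10 and 12.01 in the control. The 10 ES cell markers averaged 11.66 and 11.55 in the knockout arrays, against 11.19 and 11.29 in the control arrays. By their brightest probe sets 4 were higher in the knockout at a limma adjusted p under 0.05 (Pou5f1, Nanog, Esrrb and Lin28a), where 1.98% of all genes were. The median difference of the 10 was 0.081. Both knockout arrays lay above both control arrays for 5 of them (23.1% of all genes) and below for 1 (29.2% of all genes). Another bright probe set of Lin28a differed by 0.22 with overlapping groups. For Esrrb another bright one differed by 0.097 and a dimmer one by 0.74. The 19 measured feeder fibroblast markers averaged 7.14 and 6.42 in the knockout arrays, against 7.38 and 6.75 in the control arrays. Of them 16 lay above the background range on all 4 arrays. No array held feeder cells alone, so whether this signal came from the feeder cells was not tested. Snai1 itself was at 3.79 and 4.04 in the knockout, against 4.41 and 4.69 in the control, all within the background range, so its level does not check the labels. The 3' minus 5' gap of the Actb control probe sets, which widens when RNA is degraded or copied incompletely, was 1.11 and 0.80 in the knockout arrays, against 3.02 and 2.97 in the control arrays. For Gapdh the gap was 0.40 and 0.27 in the knockout, against 1.24 and 1.48 in the control.

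Mdk had the largest difference of the 10 genes. Its probe set, 1416006_at, was at 10.76 and 10.56 in the knockout arrays, against 8.77 and 8.58 in the control arrays. Both knockout arrays lay above both control arrays by far more than the 0.21 and 0.19 that separated the arrays within the knockout and control groups. The log2 difference, knockout minus control, was 1.99 with a moderated standard error (SE) of 0.15, a 3.96-fold higher signal in the knockout. It was the ninth largest positive difference among the 18193 genes, each taken by its brightest probe set. Mdk has a single probe set, so no other part of its transcript was measured. With each array left out in turn the difference ranged from 1.88 to 2.09.

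**Figure D1:**
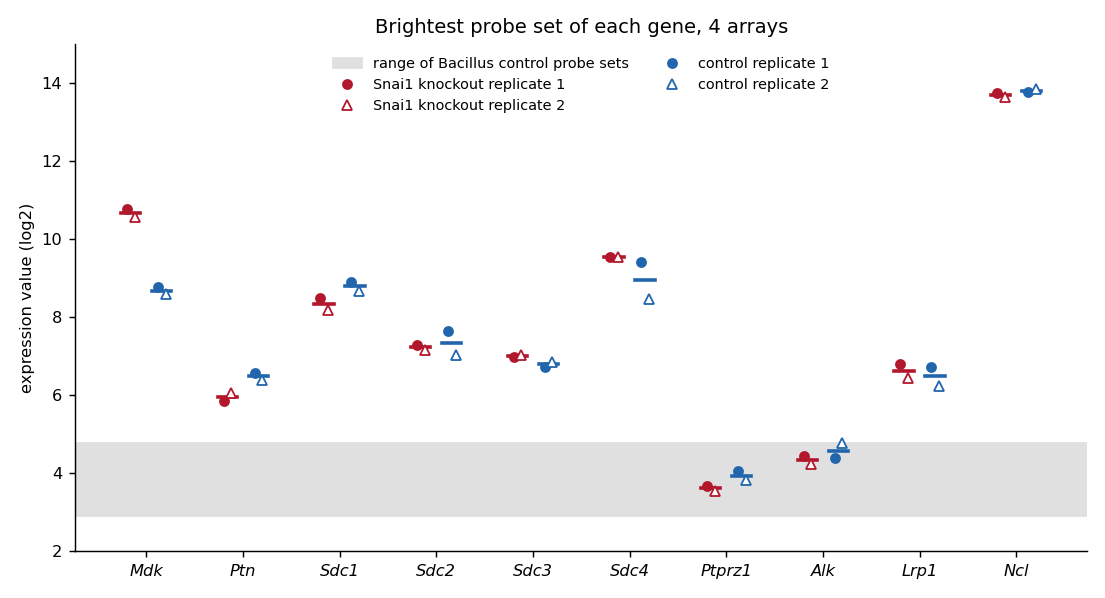
Expression value (log2, vertical axis) of the brightest probe set of each of the 10 genes on every array, with knockout arrays in red to the left of control arrays in blue, circles for replicate 1, triangles for replicate 2, and bars for the means of 2 arrays. The grey band is the background range of 2.91 to 4.77. Mdk stands at 10.76 and 10.56 in the knockout, against 8.77 and 8.58 in the control, while Ptprz1 lies within the band on all arrays.

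Mdk was the only member past an adjusted p of 0.05 in the fit of all genes (limma, Benjamini-Hochberg), 1 of 10, where 4.14% of all genes passed. In the fit of all probe sets 1 of the 28 passed, again that of Mdk, where 0.546% of all probe sets did. Nothing is read from these counts, since the same contrast served to choose the set. Without control replicate 2 none of the 10 genes passed, and Mdk then differed by 1.89. Knockout and control arrays did not overlap for 15 of the 28 probe sets, 7 with the knockout above and 8 with it below, where the groups did not overlap for 49.4% of all probe sets. The median difference was -0.044 over the 28 probe sets and -0.0063 over all probe sets.

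The Mdk gene is short, at 2.49 kb in the RefSeq annotation, and 6.77% of 18145 genes with a known span are as short or shorter. The other 9 genes span from 14.7 kb (Ncl) to 736 kb (Alk), against a median of 20.2 kb over all genes. The knockout arrays, in which Mdk was higher, had the smaller Actb gap, by 2.04 on the log2 scale. When the dependence of each array on gene span and mean signal had been taken out, the difference of Mdk was 1.71 with an SE of 0.17. The part of RNA quality in this difference was not tested.

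The genes whose pattern over the 4 arrays was most like that of Mdk were sought by the Euclidean distance between values centred on each gene's mean. The nearest was Cox6b2, a cytochrome oxidase subunit, at a distance of 0.092, against a median of 2.03 over all genes. It was at 8.94 and 8.62 in the knockout, against 6.92 and 6.75 in the control. Next came Pfn1, which encodes the actin-binding protein profilin, at 0.173, then Mlf2 at 0.188, Ly6e, a membrane protein of the Ly6 family, at 0.222, and Tecr, a reductase of fatty acid elongation, at 0.320. Of these 5 genes, 2 had a further probe set: that of Tecr differed by 1.56, and that of Ly6e, which is dimmer, by 0.18. With 4 arrays in 2 groups this likeness mostly restates the difference between the groups.

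Ptn, the other member of the growth factor family, did not follow Mdk. Its brightest probe set, 1448254_at, was at 5.85 and 6.04 in the knockout, against 6.56 and 6.39 in the control. The knockout arrays lay below the control arrays, with a log2 difference of -0.53 and an SE of 0.15. The other probe sets of Ptn did not show this difference: 1443173_at was at 5.53 and 5.74 in the knockout, against 5.53 and 5.69 in the control. The third, 1416211_a_at, lay slightly higher in the knockout, at 5.02 and 5.18, against 4.99 and 4.93 in the control. With all probe sets of the gene averaged, Ptn differed by -0.12. Its probe sets stood only a little above the background range, in contrast to that of Mdk, and brightness cannot be compared between probe sets as an amount of RNA.

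Syndecans carry heparan sulfate chains on a transmembrane core protein. Sdc1 is the syndecan of epithelia and of plasma cells, Sdc2 is typical of mesenchymal cells, Sdc3 of the nervous system, and Sdc4 is widely expressed and sits in focal adhesions. In both groups all 4 had probe sets above the background range. The probe sets of 1 syndecan often differed in sign, so each gene is given by all of them. Errors of a brightest probe set are from the fit of all genes.

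For Sdc1, the brightest probe set, 1437279_x_at, was at 8.48 and 8.17 in the knockout, against 8.90 and 8.67 in the control, a difference of -0.46 with an SE of 0.16. A probe set of nearly the same brightness, 1415943_at, was at 8.53 and 8.19 in the knockout, against 8.27 and 8.33 in the control, and the groups overlapped. The remaining probe sets differed by -0.17 and 0.21. Sdc1 lay lower in the knockout by 1 of its 2 brightest probe sets and not by the other.

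For Sdc2, the brightest probe set, 1448545_at, was at 7.29 and 7.15 in the knockout, against 7.63 and 7.03 in the control, so that the knockout arrays lay between the control arrays. Its second probe set, 1417011_at, was at 6.85 and 6.63 in the knockout, against 7.48 and 7.21 in the control, a difference of -0.61. The third, 1417012_at, was at 6.41 and 6.45 in the knockout, against 6.20 and 6.36 in the control, with the knockout above the control by 0.15. The fourth lay within the background range. The sign of the difference at the brightest probe set turned to 0.19 without control replicate 1 and to 0.10 after removal of the gene span trend, so no direction is given for Sdc2.

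Sdc3 was slightly higher in the knockout by its brighter probe sets. The value of 1420853_at was 6.97 and 7.02 in the knockout, against 6.71 and 6.86 in the control, and that of 1450027_at was 6.90 and 6.60 in the knockout, against 6.45 and 6.14 in the control. The differences were 0.22 with an SE of 0.14 and 0.45 with an SE of 0.17. Neither pair of groups overlapped, but the groups did not overlap for 49.4% of all probe sets either. The dimmest probe set, 1436482_a_at, differed by -0.066 with overlapping groups.

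Sdc4 was the syndecan with the least even control arrays. Its brightest probe set, 1448793_a_at, was at 9.55 and 9.53 in the knockout, against 9.41 and 8.46 in the control, a difference of 0.60 with an SE of 0.28. That difference came mostly from control replicate 2: it was 0.13 without that array and 1.08 without control replicate 1. The other probe set, 1417654_at, was at 8.80 and 8.15 in the knockout, against 8.87 and 8.57 in the control, a difference of the opposite sign, -0.25, with overlapping groups.

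**Figure D2:**
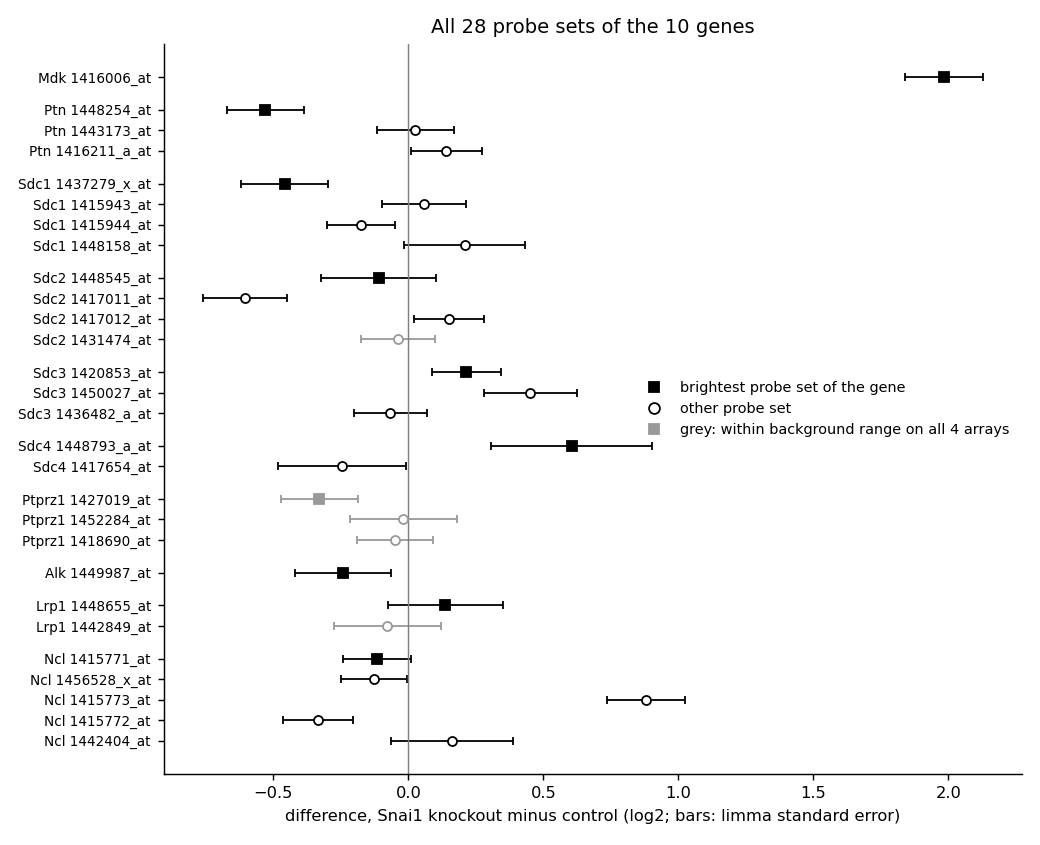
Difference of each of the 28 probe sets, knockout minus control (log2, horizontal axis), with the moderated standard error as bars, squares for the brightest probe set of a gene, open circles for the others and grey for probe sets within the background range on all 4 arrays. Mdk stands at 1.99, and the probe sets of Ptn, all 4 syndecans, Lrp1 and Ncl fall on both sides of 0.

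Ptprz1 and Alk are the receptors best known for signalling by these factors. Ptprz1 is a receptor-type tyrosine phosphatase with chondroitin sulfate chains, found in the nervous system, which pleiotrophin inactivates. Alk is a receptor tyrosine kinase of the developing nervous system. The brightest probe set of Ptprz1, 1427019_at, was at 3.67 and 3.53 in the knockout, against 4.04 and 3.82 in the control, and the other 2 ranged from 3.12 to 3.56 over all arrays. All 3 lay within the background range, so no level or difference can be read from them. The probe set of Alk, 1449987_at, was at 4.43 and 4.22 in the knockout, against 4.37 and 4.77 in the control, within the background range except for control replicate 2 at its upper edge. Neither receptor was detected above background in either group by these probe sets.

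Lrp1 encodes a large endocytic receptor of the LDL receptor family that takes up many ligands, midkine among them. Its brighter probe set, 1448655_at, was at 6.81 and 6.42 in the knockout, against 6.72 and 6.24 in the control. The groups overlapped, and the difference of 0.14 was smaller than its SE of 0.21. It turned to -0.054 without knockout replicate 1 and to -0.10 without control replicate 2. The second probe set lay within the background range.

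Ncl encodes nucleolin, an abundant nucleolar protein of ribosomal RNA processing that also reaches the cell surface, where it binds midkine. Its brightest probe set, 1415771_at, was at 13.74 and 13.63 in the knockout, against 13.77 and 13.83 in the control, a difference of -0.12 with an SE of 0.13. Probe sets 1456528_x_at and 1415772_at lay lower in the knockout as well, by -0.13 and -0.34. The remaining bright probe set, 1415773_at, went the other way: it was at 11.58 and 11.37 in the knockout, against 10.51 and 10.67 in the control. Its difference was 0.88 with an SE of 0.14, the second largest of the 28 probe sets. With all probe sets of the gene averaged the difference was 0.092, opposite in sign to that of the brightest.

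Probe sets 1415773_at and 1415772_at of Ncl therefore changed their order between the groups, and no other pair of the gene did. They were compared because they had its highest and lowest differences. The value of 1415773_at exceeded that of 1415772_at by 0.86 and 0.50 in the knockout arrays and fell short of it by 0.59 and 0.49 in the control arrays (-0.59 and -0.49 as signed differences). Of 3534 genes with at least 2 probe sets at a mean of 6 or more, 10.2% had differences spread as widely as the 1.22 of Ncl, and the median spread was 0.45. For Sdc4 the spread was 0.85 and for Sdc2 0.76, reached by 21.6% and 26.5% of these genes. A further probe set can only widen a spread, and the genes were not matched by number of probe sets. These percentages therefore do not say how unusual a spread is. Where in the transcript each probe set lies was not known here. The Actb gap differed between the same groups by 2.04, the Gapdh gap by 1.02 and that of Tfrc, the transferrin receptor, by 1.01, while that of Pcx, a pyruvate carboxylase, differed by 0.062, and the part of this in the split of Ncl was not tested.

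**Figure D3:**
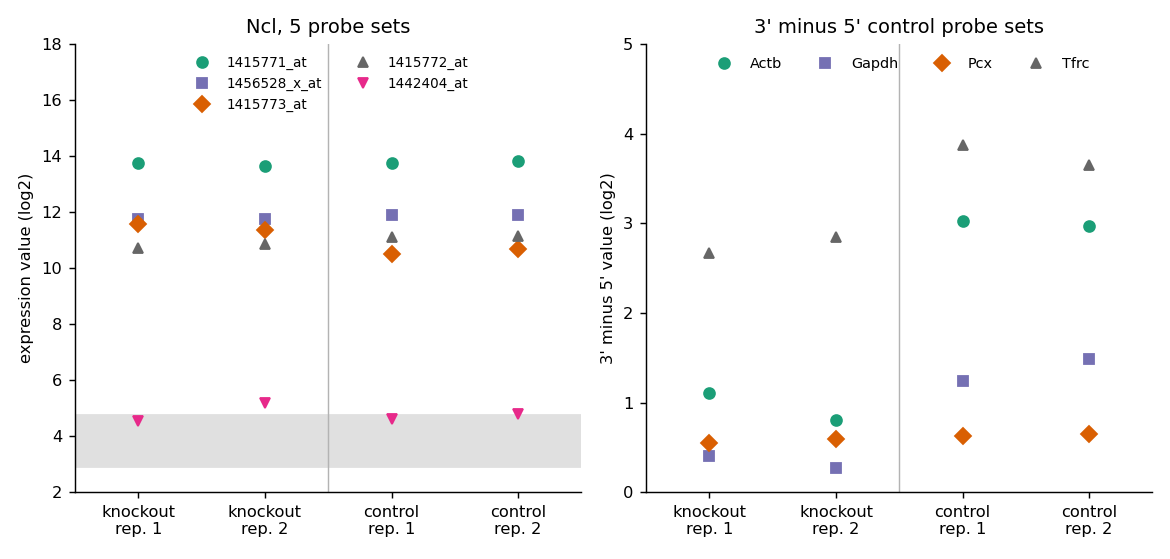
Left, expression value (log2) of the 5 Ncl probe sets on each array, knockout arrays left of control arrays, with the background range in grey. Right, 3' minus 5' value (log2) of the control probe sets for Actb, Gapdh, Pcx and Tfrc on the same arrays. The probe set 1415773_at lies above 1415772_at in the knockout and below it in the control, and the Actb gap is 1.11 and 0.80 in the knockout, against 3.02 and 2.97 in the control.

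Values of some of these genes also differed between the arrays of 1 group, which the choice of the set did not use. Replicate 1 lay above replicate 2 in both groups for 12 of the 28 probe sets, 9 of them above background throughout, where this held for 24.5% of all probe sets. It held for Lrp1 (by 0.38 in the knockout, against 0.48 in the control), for Sdc4 (1417654_at, by 0.65 and 0.30) and for Mdk (by 0.21 and 0.19). For Sdc2 it held at 1417011_at (by 0.21 and 0.27) and at the brightest, 1448545_at (by 0.14 and 0.60). Sdc1 showed it at its brightest, 1437279_x_at (by 0.31 and 0.22), and Ncl barely at 1456528_x_at (by 0.0018 and 0.0175). Replicate 2 lay above replicate 1 in both groups for 7 probe sets, whose share over all probe sets was not counted, and 9 were mixed. Among the 7 was a further probe set of Sdc2, 1417012_at, with replicate 1 minus replicate 2 of -0.042 (knockout) and -0.16 (control). The probe sets of Sdc3 were split. Replicate 1 minus replicate 2 was 0.30 and 0.31 at 1450027_at, but -0.052 and -0.15 at its brightest, 1420853_at. For Sdc4 the brightest, 1448793_a_at, gave 0.014 and 0.95. Of the 19 feeder markers, 14 were higher in replicate 1 in both groups, and their mean differed by 0.71 in the knockout, against 0.62 in the control. The part of feeder cells in these levels was not tested. In such mixed samples fewer cells of a type and less RNA per cell cannot be told apart.

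**Figure D4:**
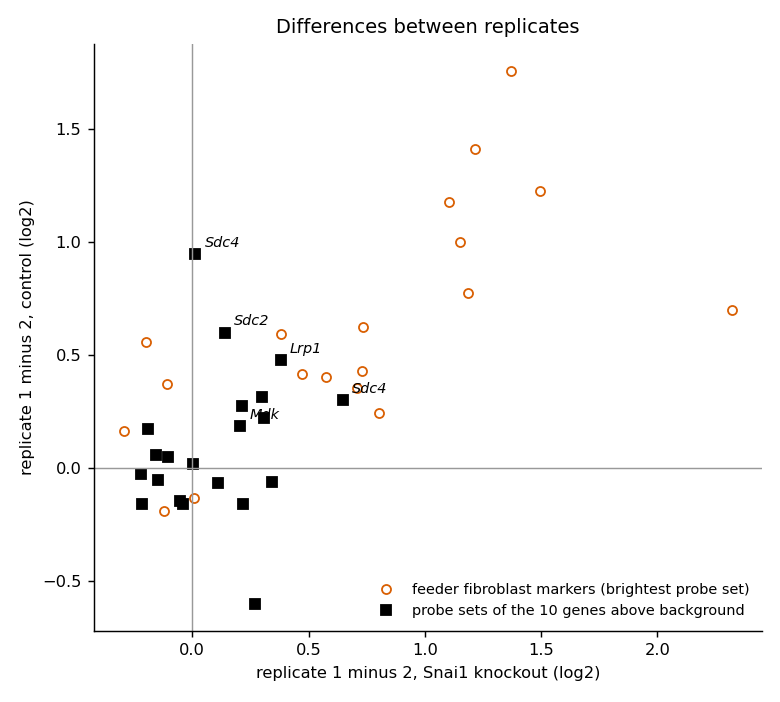
Replicate 1 minus replicate 2 (log2) in the knockout on the horizontal axis and in the control on the vertical axis, for the probe sets of the 10 genes above background on all arrays (black squares) and for 19 feeder fibroblast markers (orange circles). Most feeder markers lie to the upper right, and Lrp1, at 0.38 and 0.48, and a probe set of Sdc4, at 0.65 and 0.30, lie among them.

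Other genes on which these factors depend were read from 9 lists, with 131 of 138 genes measured. Over the lists 4 genes rose (3.05% of those measured, where 1.98% of all genes did) and 3 fell (2.29%, where 2.17% of all genes did). None of the 7 passed with any single array left out, and all 7 kept their sign. The median difference over the listed genes was -0.022, as it was over all genes. At an unadjusted p under 0.05 limma gave 30 of the 131 listed genes, where it gave 4353 of all 18193 genes. Counts at that level for single lists are to be read beside this share.

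Enzymes that build and modify heparan sulfate had no call among 21 measured members (limma; 1 was higher and 2 lower at an unadjusted p under 0.05). Among brightest probe sets the largest difference was that of Hs6st2, a 6-O-sulfotransferase, at 7.62 and 7.49 in the knockout, against 8.28 and 7.73 in the control (-0.45, limma adjusted p = 0.221). Some dimmer probe sets of the list differed more, such as those of Extl2 by -0.98, Sulf1 by -0.82 and Hs2st1 by 1.03, and these 3 did not pass in the fit of all probe sets. The brighter probe sets of Hs2st1 had the opposite sign, at -0.39, -0.14 and -0.059. The list's median was -0.027. Among 21 enzymes of the linkage region and of chondroitin sulfate, 1 fell, where 2.17% of all genes did, and none rose. This was Fam20b, the kinase that phosphorylates the first xylose of both kinds of chain. It was at 7.36 and 7.15 in the knockout, against 8.19 and 7.94 in the control (-0.81 with an SE of 0.16, limma adjusted p = 0.0434). Its 2 dimmer probe sets differed by -0.11 and 0.12, and the call was lost with an intensity trend, with all probe sets averaged and once the gene span trend was removed.

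Among 18 other core proteins that carry such chains, limma gave 2 lower and none higher at an unadjusted p under 0.05. Past an adjusted p of 0.05, 1 fell, where 2.17% of all genes did, and none rose. This was Tgfbr3, the TGF-beta co-receptor betaglycan, at 7.02 and 6.29 in the knockout, against 7.96 and 7.74 in the control (-1.19 with an SE of 0.24, limma adjusted p = 0.0453). The call was lost with all probe sets averaged, which takes in a probe set within the background range.

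Of 10 further reported receptors of midkine or pleiotrophin, 1 fell, where 2.17% of all genes did, and none rose. At an unadjusted p under 0.05 limma gave 5 lower and none higher, where 4353 of all 18193 genes lay on either side. The list median was -0.42, and both knockout arrays lay below both control arrays for 6 of the 10 (29.2% of all genes) and above them for none (23.1% of all genes). The feeder markers had a median of -0.32, and their part in these values was not tested. Itgb3, the integrin subunit that pairs with Itgav to bind pleiotrophin, was at 5.14 and 4.71 in the knockout, against 5.82 and 5.68 in the control (-0.82 with an SE of 0.17, limma adjusted p = 0.0487), with knockout replicate 2 within the background range. Its call was lost with all probe sets averaged and once the gene span trend was removed. Ptprg, the closest relative of Ptprz1, was at 8.17 and 7.65 in the knockout, against 8.44 and 8.60 in the control (-0.62, limma adjusted p = 0.105). Itgb1, an integrin subunit of midkine receptors, differed by -0.37 at its brightest probe set (limma adjusted p = 0.435), with overlapping groups. Its other bright probe sets differed by -0.53 and -0.34, with both knockout arrays below both control arrays. Ltk, the relative of Alk, was near background at 5.05 and 5.12 in the knockout, against 5.17 and 5.05 in the control.

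Of 9 measured substrates and adaptors of Ptprz1 and Alk, 2 rose, where 1.98% of all genes did, and none fell. By limma 3 were higher and none lower at an unadjusted p under 0.05. Git1, a GTPase-activating protein that Ptprz1 dephosphorylates, was at 7.83 and 7.66 in the knockout, against 6.94 and 6.83 in the control (0.86 with an SE of 0.14, limma adjusted p = 0.0351). Shc1, an adaptor of receptor tyrosine kinases, was at 8.41 and 8.12 in the knockout, against 7.59 and 7.52 in the control (0.71 with an SE of 0.15, limma adjusted p = 0.0490). The call of Shc1 was lost with an intensity trend, with all probe sets averaged and once the gene span trend was removed. Ctnnb1, which encodes beta-catenin, differed by -0.22 (limma adjusted p = 0.427), and its other bright probe sets differed by -0.90 and -0.55. Ptprz1 and Alk were themselves at background, so these values are not tied to either receptor.

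No partner or sheddase of the syndecans passed among 12 measured (limma; 2 higher and 2 lower at an unadjusted p under 0.05). The count was 1, higher in the knockout, with further quantile normalization, median centring, either filter on dim features or the gene span trend removed. Gipc1, which binds the cytoplasmic tail of Sdc4, was at 7.48 and 7.21 in the knockout, against 6.18 and 6.72 in the control (0.90, limma adjusted p = 0.0549). Sdcbp, which encodes syntenin, a partner of all syndecan tails, was at 9.91 and 9.69 in the knockout, against 10.37 and 10.30 in the control (-0.53, limma adjusted p = 0.0754). Another probe set of Sdcbp was at 6.78 and 6.62 in the knockout, against 7.78 and 7.72 in the control, and passed in the fit of all probe sets (-1.05, limma adjusted p = 0.0470). Among 12 relatives and helpers of Lrp1 none passed (limma; none higher and 1 lower at an unadjusted p under 0.05). Among brightest probe sets the largest difference there was that of Lrp2, which encodes megalin (-0.51, limma adjusted p = 0.0696). A dimmer probe set of Lrp6, a Wnt co-receptor, was at 5.96 and 6.07 in the knockout, against 5.21 and 5.27 in the control (0.78, limma adjusted p = 0.0595 in the fit of all probe sets), and Lrpap1, the chaperone of Lrp1, differed by -0.081.

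Of 16 nucleolar proteins, 1 rose, where 1.98% of all genes did, and none fell. Nop2, a methyltransferase of ribosomal RNA, was at 10.37 and 10.26 in the knockout, against 9.47 and 9.59 in the control (0.79 with an SE of 0.14, limma adjusted p = 0.0385). Npm1, which encodes nucleophosmin, was at 14.21 and 14.23 in the knockout, against 14.21 and 14.15 in the control. Another bright probe set of Npm1 was at 14.09 and 14.14 in the knockout, against 13.79 and 13.82 in the control. Its difference of 0.31 did not pass in the fit of all probe sets. Of 12 measured retinoic acid receptors and response genes, 1 rose, where 1.98% of all genes did, and none fell. This was Crabp1, a cellular retinoic acid binding protein. It was at 10.54 and 10.32 in the knockout, against 9.55 and 9.45 in the control (0.93 with an SE of 0.14, limma adjusted p = 0.0328). Rarg, a retinoic acid receptor of ES cells, was at 8.09 and 8.04 in the knockout, against 7.33 and 7.67 in the control (0.56, limma adjusted p = 0.0832). Rarb and Hoxb1, which retinoic acid induces, lay within the background range on all arrays. The knockout arrays, in which Nop2, Crabp1 and Rarg were higher, had the smaller Actb gap, by 2.04, and its part in these differences was not tested.

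**Figure D5:**
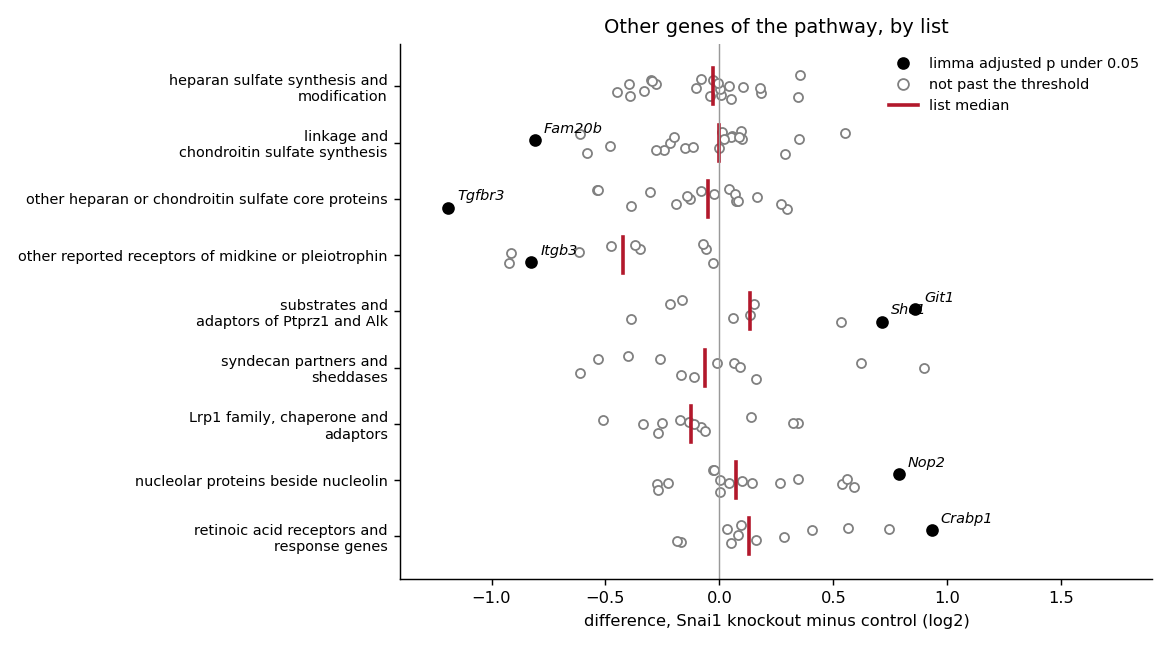
Difference, knockout minus control (log2, horizontal axis), of each measured gene in the 9 lists, 1 point a gene, with vertical spread within a list added for legibility. Filled points passed an adjusted p of 0.05 and are named, open points did not, and red bars are list medians. The list of further receptors has its median at -0.42, and the medians of the other 8 lists lie between -0.12 and 0.13.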

How the data were processed

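The authors deposited a log2 value for each of 45101 probe sets on each of 4 arrays. The submitters' processing notes name RMA and limma, with no version, order or setting. RMA gives all arrays like distributions, so a change common to most genes would be lost. Groups and replicate numbers came from the sample titles, which set the sign of all differences, since the source name of the control samples also holds the words knock out.

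GEO's platform annotation named the probe sets. After 64 Affymetrix control probe sets were left out, 45037 probe sets were tested singly and 18193 genes by their brightest probe set (highest 4-array mean). The fits used limma 3.58.1 in R 4.3.3 (lmFit, eBayes, two-sided, Benjamini-Hochberg over all features, threshold 0.05), checked on simulated data. P-values measure only the spread between these arrays, which may be technical. Differences are knockout minus control. Gene spans and promoters came from RefSeq (GRCm38.p6).

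The members and lists were chosen with earlier results of these data known. Named genes were all members, Snai1, Pou5f1, Sox2 and Nanog, the 5 genes nearest to Mdk, up to 3 genes past the threshold in each list or else the largest difference, and Sdcbp, Ptprg, Ltk, Lrpap1, Npm1, Itgb1, Ctnnb1 and Rarg. Rarb, Hoxb1, Esrrb, Lin28a, Extl2, Sulf1, Hs2st1, Lrp6 and the genes of the closing section were named after their values were seen. Lists of primitive endoderm and neural markers were also read. Of 8 measured primitive endoderm markers 0 passed the threshold by limma, with 1 higher and 1 lower at an unadjusted p under 0.05. Of 7 measured neural markers Stmn2 was higher and Pax6 lower at their brightest probe sets, where 1.98% of all genes rose and 2.17% fell. Another bright probe set of Stmn2 differed by -0.24 with overlapping groups. Dimmer probe sets of Pax6 differed by 0.43, 0.22, 0.076 and -0.040. Of the feeder markers Ccl2 was higher. Alternatives were an intensity trend, a robust fit, further quantile normalization, median centring, 2 filters on dim features, the mean of a gene's probe sets, a fit with a replicate block, and fits lacking 1 array. Removal of the gene span trend (loess, span 0.3) was chosen after seeing the data.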

Additional observations from a re-analysis of the deposited data

How the results depend on the processing

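The number of genes past the threshold was 754 (360 higher, 394 lower). It was 481 with an intensity trend, 1224 with a minimum mean of 6, 321 with a gene's probe sets averaged and 4 to 50 with 1 array left out, fewest when control replicate 2 was left out. Further quantile normalization gave 864 with another split, 527 higher and 337 lower. The number of probe sets was 246, against 568 with further quantile normalization, 507 with a minimum mean of 6 and 0 to 173 with 1 array left out, where limma gave 5187 to 8517 at an unadjusted p under 0.05. Among the 10 genes the count of 1, which the choice of Mdk fixes, ranged from 0 to 1 with 1 array left out (0 without control replicate 2). In the fit of all probe sets that of Mdk passed with control replicate 1 left out and with none of the other 3 arrays left out. The difference of Mdk ranged from 1.88 to 2.09 with 1 array left out, and was 1.71 after removal of the gene span trend. The 7 calls in the lists became 3 with all probe sets averaged and 0 with any array left out (22 to 37 at an unadjusted p under 0.05). The causes were not tested, apart from the smaller number of arrays or features by construction. Over 126 alternative values of the 10 genes' differences, 8 moved by more than the spread between replicates and 5 changed sign, in Sdc2, Lrp1 and Ncl, none of them past the threshold.

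The groups share replicate numbers, but the labels do not say that a number marks a shared culture or day. Deviations of same-numbered arrays from their group means correlated at r = 0.294 across genes, which are not independent. With the replicate block, 3092 genes and 1536 probe sets passed, 3 of the 10 genes passed (Mdk higher, Ptn and Sdc1 lower), and 27 listed genes did, 4 of them syndecan partners. Among the 28 probe sets 1415773_at of Ncl then passed beside that of Mdk. With 2 arrays a group, signals near the background range, those of Ptprz1 and Alk, allow no comparison.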

Other observations

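The spread of differences among a gene's probe sets was also read for the 16 nucleolar genes listed beside Ncl, after the split of Ncl had been seen. Of these, 7 had at least 2 probe sets at a mean of 6 or more. Of the 7, 5 had a spread at or above the median of 0.45 over all such genes, and 1, Dkc1, reached the 1.22 of Ncl. Here too the genes were not matched by number of probe sets. A second probe set of Nop56, a box C/D ribonucleoprotein subunit, was at 11.81 and 11.97 in the knockout, against 11.16 and 10.77 in the control (0.92), while its brightest one differed by 0.0033. For Nhp2, a subunit of H/ACA ribonucleoproteins, a second probe set was at 12.59 and 12.75 in the knockout, against 11.81 and 11.87 in the control (0.83), and the brightest one differed by 0.14. For Dkc1, the pseudouridine synthase of the same particles, the differences were -0.22 at the brightest probe set, and 1.23 and 0.040 at the others. For Nolc1 they were 0.26, 0.92 and -0.29, and for Fbl, which encodes fibrillarin, 0.0035 and 0.60. The spread was 0.33 for Pes1 and 0.27 for Npm1, both below the median. None of these probe sets passed an adjusted p of 0.05 in the fit of all probe sets by limma, in which the lowest of those given here, for Nolc1, was 0.05002.

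Among the genes around the growth factors, Sulf2, an extracellular enzyme that removes sulfate from heparan sulfate, was at 11.35 and 10.97 in the knockout, against 11.64 and 11.34 in the control at its brightest probe set (-0.33), and its other bright probe sets differed by 0.72 and -0.48. Fyn, a Src-family kinase and substrate of Ptprz1, differed by 0.53 at its brightest probe set and by -0.84 at another. These genes were chosen after their values were seen.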
